A study of Mus musculus with 16 samples.

Results

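The genes described here are 10 genes of the mouse liver, the gene of the TWEAK receptor and 9 genes of the cytoskeleton, followed over 16 Affymetrix arrays. The listed genes were Tnfrsf12a, Krt8, Krt18, Krt19, Tubb2a, Tubb2b, Tubb6, Actg1, Vim and Msn. Members were found by symbol in the annotation of the probe sets, and a gene with several probe sets was to be read from its brightest probe set, chosen by the mean level on all 16 arrays. Each of 9 genes had exactly 1 probe set with its symbol alone, so that mean level decided nothing and no second probe set could be compared. Actg1, a cytoplasmic actin, shared both of its probe sets with other symbols and is not analysed here. Beyond this rule, the genes were listed with the PHx differences of Tnfrsf12a and Krt8 on these arrays known. The 9 measured genes stand among 30142 genes of the table.

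The study asked what hepatocyte PPARα, a nuclear receptor that senses fatty acids, does in the liver after partial hepatectomy (PHx), an operation that removes part of the organ and starts regrowth of the rest. Ppara fl/fl mice, called wild type by the submitters, and Ppara△Hep mice, in which the gene was disrupted in hepatocytes, had PHx or a sham operation, and every liver was taken at 12 h. Each of the 4 groups (sham fl/fl, sham Ppara△Hep, PHx fl/fl and PHx Ppara△Hep) has 4 arrays of total liver RNA. Sources used here do not give the driver of the disruption, the sex or the age, and liver cells other than hepatocytes should keep the gene. Whether each array stands for its own mouse is not stated, so the spread that p-values rest on is that between arrays and may be partly technical.

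Tnfrsf12a encodes Fn14, a small receptor of the tumour necrosis factor receptor superfamily that binds the cytokine TWEAK and signals through TRAF adaptor proteins to NF-κB. In liver it is known for its low level at rest and its induction by injury, and for growth of ductal and progenitor cells. The cytoskeletal genes encode parts of 3 filament systems. Krt8 and Krt18 form the keratin filaments of hepatocytes, Krt19 is a keratin of bile duct cells, and Vim encodes the intermediate filament protein of mesenchymal cells. Tubb2a, Tubb2b and Tubb6 encode β-tubulins of microtubules, and Msn encodes moesin, which ties actin filaments to the cell membrane.

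The promoters of 4 members whose levels moved together on the PHx arrays, described below, are given first. Tubb2b and Tubb6, which also moved with them, are not shown. Each is the stretch of 250 bases before the annotated start in RefSeq (GRCm38.p6), read 5′ to 3′ on the gene's strand. Capitals mark exact matches on either strand to the GC box GGGCGG or the TATA box TATAAA. The genes lie on chr17 (Tnfrsf12a, minus strand, promoter chr17:23677450-23677699), chr15 (Krt8, minus strand, chr15:102004343-102004592, and Krt18, plus strand, chr15:102027966-102028215) and chr13 (Tubb2a, minus strand, chr13:34078009-34078258).
Tnfrsf12a: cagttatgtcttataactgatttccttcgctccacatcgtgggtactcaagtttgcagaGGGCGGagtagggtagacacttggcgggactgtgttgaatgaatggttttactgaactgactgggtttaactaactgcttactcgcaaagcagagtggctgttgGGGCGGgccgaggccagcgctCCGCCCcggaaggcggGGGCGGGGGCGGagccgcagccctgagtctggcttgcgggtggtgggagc
Krt8: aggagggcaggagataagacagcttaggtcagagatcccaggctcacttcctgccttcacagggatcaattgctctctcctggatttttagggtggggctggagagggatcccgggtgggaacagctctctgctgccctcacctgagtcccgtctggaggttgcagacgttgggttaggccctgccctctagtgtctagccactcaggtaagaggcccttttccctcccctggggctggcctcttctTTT
Krt18: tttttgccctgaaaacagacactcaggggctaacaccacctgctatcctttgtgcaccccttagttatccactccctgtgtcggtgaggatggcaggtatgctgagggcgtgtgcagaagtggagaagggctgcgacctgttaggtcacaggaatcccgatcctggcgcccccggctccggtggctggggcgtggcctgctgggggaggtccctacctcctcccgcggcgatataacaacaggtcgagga
Tubb2a: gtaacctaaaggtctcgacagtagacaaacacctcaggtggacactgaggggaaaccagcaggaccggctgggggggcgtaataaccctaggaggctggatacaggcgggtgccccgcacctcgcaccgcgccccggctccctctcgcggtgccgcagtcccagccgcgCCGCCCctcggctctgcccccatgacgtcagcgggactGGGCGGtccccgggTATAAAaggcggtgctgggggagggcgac

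The table of promoters held 6 of the 9 measured members, namely these 4, Vim and Msn. Searched in 300 bases (250 before to 50 after the start), the GC box was found in 3 of the 6, at 5 places in Tnfrsf12a, 2 in Tubb2a and 3 in Msn. Of 32851 mouse promoters of the same length, 35.7% hold it. A TATA box was found in Tubb2a from -29 to -24, in Vim from -32 to -27 and in Krt8 from -1 to 5, against 13.6% of all promoters. In Krt8 the reverse match TTTATA overlaps it and begins at -3, which puts the last 3 printed bases in capitals. The NF-κB motif matched in Vim alone of the 6 (1.63% of all promoters). The AP-1 motif TGANTCA, the CArG box and the PPAR response element matched in none of the 6, against 7.81%, 1.63% and 0.0396% of all promoters. Krt8 and Krt18 are neighbours on chromosome 15, at 101996711 to 102004342 and 102028216 to 102032026, and their starts face away from each other.

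Values are log2 levels as deposited. An increase of 1 is a doubling. Levels of different genes come from different probes and are not compared with each other. They were set against the 5222 negative control probe sets of the arrays, whose median is 1.98 and whose 95th percentile is 4.93. Tnfrsf12a, Krt8, Krt18, Tubb2a, Tubb6 and Msn had means over the 16 arrays above that percentile, as did 19.5% of all genes. Krt19 (mean 2.48), Tubb2b (1.97) and Vim (4.52) lay below it, above 64.2%, 49.6% and 92.8% of the negative controls, so their values are close to what unspecific binding gives. Near-identical tubulin genes, and keratin genes with processed copies, can share probe sequence, and the values of Tubb2a, Tubb2b, Tubb6, Krt8 and Krt18 are uncertain in that respect.

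The arrays of a group correlated at 0.986 to 0.997 over all probe sets, and no 2 arrays were identical. Ppara itself was lower by 0.50 ± 0.33 in sham and 1.17 ± 0.33 in PHx Ppara△Hep livers (log2, SE), neither of which passed the test (limma adjusted p = 0.681 and 0.326). After sham its groups did not overlap. Whether the probe set lies outside the disrupted exons was not tested. Cyp4a14, a classical target of PPARα, was lower in Ppara△Hep livers by 4.20 ± 1.11 after sham, without overlap of the arrays, and by 4.45 ± 1.11 after PHx, with overlap (limma adjusted p = 0.383 and 0.214). The operations also differed in measures of the arrays as wholes. The median of all probe sets was 2.17 ± 0.02 on PHx and 2.05 ± 0.02 on sham arrays (SD, n = 8 each), and that of positive controls 5.59 ± 0.12 against 5.95 ± 0.09. For background control probe sets of antigenomic sequence it was 1.01 ± 0.04 against 1.24 ± 0.03, without overlap, and for negative controls 2.02 ± 0.07 against 1.94 ± 0.06. The median of chromosome Y genes was 4.89 ± 0.18 against 1.90 ± 0.07. The single-copy Y genes Eif2s3y and Uty did not share that shift, with Eif2s3y at 4.98 ± 0.16 on PHx and 5.26 ± 0.09 on sham arrays and Uty at 4.74 ± 0.07 and 4.88 ± 0.07. What part these differences have in the members' PHx values was not tested.

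**Figure D1:**
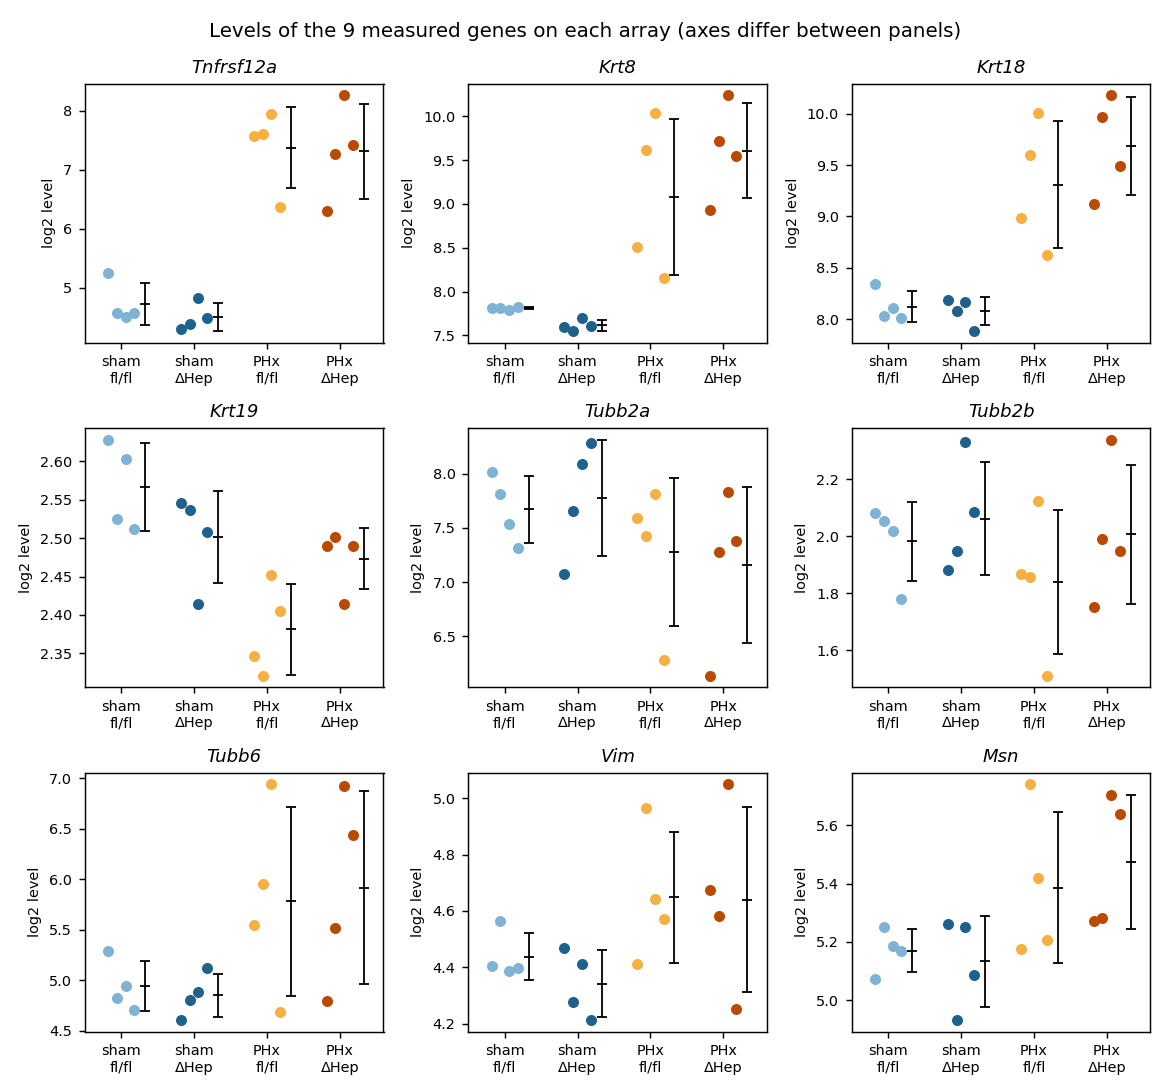
Log2 level (y axis, a separate scale for each gene) of the 9 measured genes on every array, by group (x axis, 4 arrays each; ΔHep stands for Ppara△Hep). Points are arrays and the bars beside them are mean ± SD. Tnfrsf12a, Krt8 and Krt18 stand higher on all 8 PHx arrays than on all 8 sham arrays, while their PHx points spread more widely than their sham points.

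Tnfrsf12a and the keratin pair Krt8 and Krt18 stood higher 12 h after PHx in both genotypes. The receptor stood at 6.26 times its sham level in fl/fl and at 7.01 times in Ppara△Hep livers. Krt19 was slightly lower after PHx in fl/fl livers, and the tubulins, vimentin and moesin did not pass the test in either genotype. In none of the 9 genes did the genotypes differ past the threshold after either operation.

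The receptor comes first. Tnfrsf12a levels were 5.26, 4.57, 4.51 and 4.57 on the sham fl/fl arrays and 4.30, 4.39, 4.83 and 4.50 on the sham Ppara△Hep arrays. After PHx they were 7.58, 7.61, 7.94 and 6.37 in fl/fl and 6.30, 7.28, 8.26 and 7.42 in Ppara△Hep livers. Every PHx array lay above every sham array of either genotype, the lowest PHx arrays being the fourth of fl/fl and the first of Ppara△Hep. The differences were 2.65 ± 0.36 in fl/fl and 2.81 ± 0.36 in Ppara△Hep livers (log2, SE). No test is given for them, because the gene was listed with this rise known.

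Of the hepatocyte keratins, Krt8 is the type II partner. Its levels were 7.81, 7.81, 7.79 and 7.82 in sham fl/fl and 7.60, 7.55, 7.70 and 7.60 in sham Ppara△Hep livers. After PHx they were 8.51, 9.62, 10.03 and 8.16 in fl/fl and 8.93, 9.72, 10.24 and 9.54 in Ppara△Hep livers. Again no PHx array overlapped a sham array, and the SD over the 4 fl/fl arrays was 0.01 after sham and 0.89 after PHx. The limma model shares 1 spread over the groups, so its error is too wide for the sham groups of this gene and too narrow for the PHx groups. The differences from sham were 1.27 ± 0.33 in fl/fl and 1.99 ± 0.33 in Ppara△Hep livers, or 2.41-fold and 3.98-fold, also given without a test because a rise of Krt8 was known when the genes were listed.

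Krt18, the type I partner of Krt8, read 8.34, 8.03, 8.11 and 8.01 in sham fl/fl and 8.18, 8.08, 8.17 and 7.89 in sham Ppara△Hep livers. After PHx the levels were 8.99, 9.60, 10.01 and 8.63 in fl/fl and 9.12, 9.97, 10.18 and 9.49 in Ppara△Hep livers. The groups did not overlap, and within both PHx groups Krt18 put the arrays in the same order as Krt8 did. Krt18 rose by 1.19 ± 0.26 in fl/fl livers, or 2.27-fold (limma adjusted p = 0.0031). In Ppara△Hep livers it rose by 1.61 ± 0.26, or 3.05-fold (limma adjusted p = 0.00029). Because Krt18 pairs with Krt8, whose rise was known when the genes were listed, these tests are not independent of that knowledge. In bulk liver RNA a change in the number of cells of a type and a change in RNA per cell cannot be told apart.

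Krt19 levels, near those of negative controls, in fl/fl livers were 2.63, 2.53, 2.60 and 2.51 after sham and 2.35, 2.32, 2.45 and 2.40 after PHx. This fall of 0.19 ± 0.05 on the log2 scale passed the test (limma adjusted p = 0.0071), with no overlap of the arrays. On the same fl/fl arrays the antigenomic background median was 1.26 after sham and 1.03 after PHx, and the negative control median 1.90 and 2.02. The part of such background shifts in the Krt19 difference was not tested. In Ppara△Hep livers the levels were 2.55, 2.54, 2.41 and 2.51 after sham and 2.49, 2.50, 2.41 and 2.49 after PHx, which overlapped. The difference there was -0.03 ± 0.05 (limma adjusted p = 0.691). It became a called fall of 0.11 after cyclic loess (adjusted p = 0.0482), 0.20 after quantile normalization (adjusted p = 0.0012) and 0.18 after subtraction of array medians (adjusted p = 0.0031).

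Among the tubulins, Tubb6 had the largest differences, with wide spreads. Its levels were 5.29, 4.83, 4.95 and 4.71 in sham fl/fl, 4.61, 4.80, 4.88 and 5.12 in sham Ppara△Hep, 5.55, 5.95, 6.94 and 4.68 in PHx fl/fl and 4.79, 5.52, 6.93 and 6.44 in PHx Ppara△Hep livers. In each genotype 1 PHx array, the fourth of fl/fl and the first of Ppara△Hep, lay within or below the sham range, and the other 3 lay above it. The differences of 0.84 ± 0.44 and 1.07 ± 0.44 did not pass (limma adjusted p = 0.157 and 0.0761). Without the fourth PHx fl/fl array the first was 1.20 (adjusted p = 0.0393), and without the first PHx Ppara△Hep array the second was 1.44 (adjusted p = 0.0157). The second also passed without the third or the fourth PHx fl/fl array (adjusted p = 0.0413 and 0.0470), which changes only the shared spread, and with array weights (adjusted p = 0.0421).

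Tubb2a, a β-tubulin that liver expresses, read 8.02, 7.81, 7.53 and 7.32 in sham fl/fl and 7.07, 7.66, 8.09 and 8.28 in sham Ppara△Hep livers. After PHx its levels were 7.59, 7.43, 7.82 and 6.28 in fl/fl and 6.14, 7.28, 7.83 and 7.38 in Ppara△Hep livers. The groups overlapped, with the same pair of PHx arrays lowest as for Tnfrsf12a and Tubb6. The differences of -0.39 ± 0.37 and -0.62 ± 0.37 did not pass (limma adjusted p = 0.448 and 0.225). Tubb2b, its close relative known from neurons, ranged from 1.51 to 2.34 over the 16 arrays, at the level of negative controls. Its PHx differences were -0.14 ± 0.14 and -0.06 ± 0.14 (limma adjusted p = 0.460 and 0.797).

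Vim levels ranged from 4.39 to 4.56 in sham fl/fl, 4.21 to 4.47 in sham Ppara△Hep, 4.41 to 4.97 in PHx fl/fl and 4.25 to 5.05 in PHx Ppara△Hep livers, and overlapped between operations. The PHx differences of 0.21 ± 0.14 and 0.30 ± 0.14 did not pass (limma adjusted p = 0.267 and 0.119). For Vim in Ppara△Hep livers the adjusted p was 0.0360 after cyclic loess and 0.0225 without the fourth PHx Ppara△Hep array. Msn stood at 5.07, 5.25, 5.19 and 5.17 in sham fl/fl, 5.26, 4.93, 5.25 and 5.09 in sham Ppara△Hep, 5.18, 5.74, 5.42 and 5.21 in PHx fl/fl and 5.27, 5.28, 5.71 and 5.64 in PHx Ppara△Hep livers. In Ppara△Hep livers its lowest PHx array lay just above the highest sham array. The Msn differences were 0.22 ± 0.13 in fl/fl and 0.34 ± 0.13 in Ppara△Hep livers (limma adjusted p = 0.209 and 0.0529). The second passed under cyclic loess (adjusted p = 0.0124), quantile normalization (0.0440), array weights (0.0466) and with dim genes left out (0.0454). It also passed without PHx fl/fl array 1 or 2 (adjusted p = 0.0494 and 0.0252) or PHx Ppara△Hep array 1 or 2 (0.0313 and 0.0342).

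Of the 7 members tested after PHx (all but Tnfrsf12a and Krt8), 1 was called higher (Krt18) and 1 lower (Krt19) in fl/fl livers, where 32.7% of all genes were called, 11.9% higher and 20.8% lower. The same 2 genes did not overlap between the operations, as was true of 12% of all genes higher and 19.9% lower. In Ppara△Hep livers 1 of the 7 was called higher (again Krt18) and 0 lower, where 32.3% of all genes were called, 14.8% higher and 17.5% lower. There 2 of the 7, Krt18 and Msn, stood higher without overlap and 0 lower, against 15.8% and 16.2% of all genes. Without the first PHx Ppara△Hep array, Tubb6 and Msn were called as well. The median difference of the 9 genes was 0.22 in fl/fl and 0.34 in Ppara△Hep livers, beside -0.04 and 0.01 over all genes. As the genes were listed with some of these rises known, the counts describe the list and are not evidence of its direction.

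**Figure D2:**
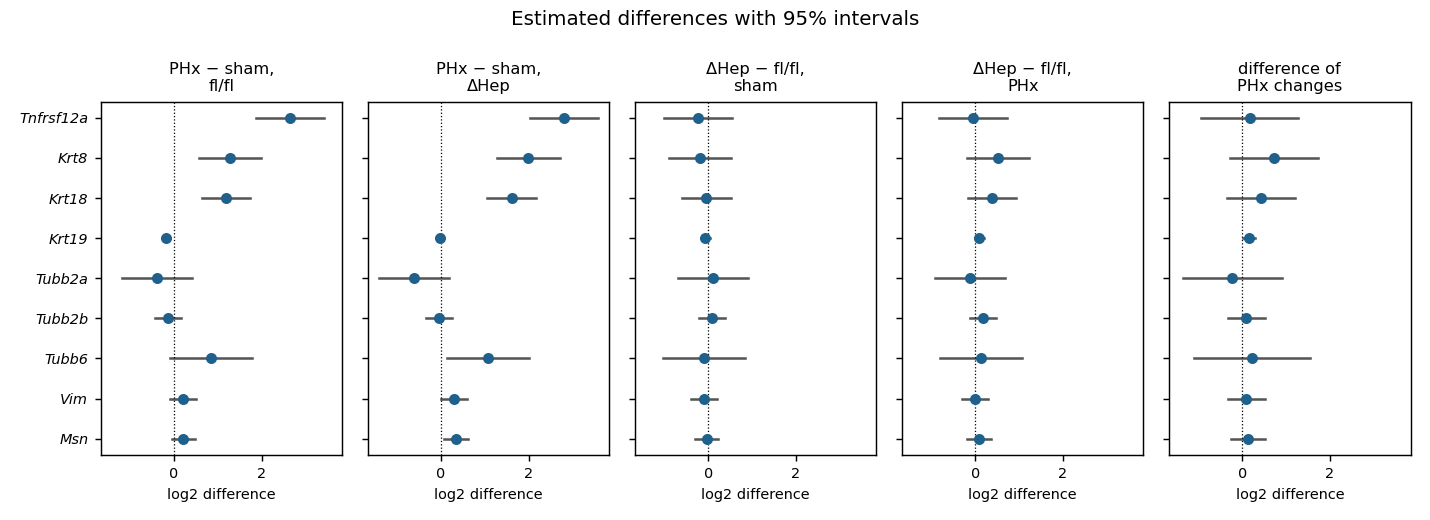
Estimated log2 differences (x axis) of the 9 measured genes (y axis) in the 5 comparisons of the limma model, with 95% intervals as lines; ΔHep stands for Ppara△Hep. The interval of Krt18 lies above 0 for PHx against sham in both genotypes, the values of Tnfrsf12a and Krt8 there are a description, and for the genotype comparisons after either operation every interval spans 0.

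The genotype comparisons ask what hepatocyte PPARα contributes to these levels. After sham, 0 of the 9 genes passed in the limma model (adjusted p from 0.698 to 0.977), with 0 at an unadjusted p below 0.05, where 0.0133% of all genes were called. Krt8 was the only member without overlap, all 4 Ppara△Hep arrays lying below all 4 fl/fl arrays, as was true of 4.43% of all genes, with 2.38% the other way. Its difference was -0.20 ± 0.33 (limma adjusted p = 0.897). Fitted on the 8 sham arrays alone, the standard error fell to 0.05 and the limma adjusted p was 0.217. A two-sided exact permutation test over those arrays gave p = 0.0286, the smallest that 70 arrangements allow, as 1 of 18 such tests. Tnfrsf12a differed by -0.22 ± 0.36 (limma adjusted p = 0.887), with overlapping arrays.

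After PHx, 0 of the 9 genes passed in the limma model (adjusted p from 0.696 to 0.997), with 0 at an unadjusted p below 0.05, where 0.143% of all genes were called. Krt8 and Krt18 were higher in Ppara△Hep than in fl/fl livers by 0.53 ± 0.33 and 0.38 ± 0.26 (limma adjusted p = 0.772 and 0.783), with overlapping arrays. Without overlap, 0 of the 9 genes parted the genotypes, against 2.41% of all genes higher and 1.31% lower. Krt19 differed by 0.09 ± 0.05 (limma adjusted p = 0.696, two-sided exact permutation p = 0.0571). For Tnfrsf12a the difference was -0.06 (95% interval -0.84 to 0.72), and with array weights it was 0.04, so no direction can be given. The interval of Tubb6, from -0.80 to 1.07, was the widest of the 9.

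The difference between the genotypes in the PHx change was called for 0 of the 9 genes and for 0% of all genes in the limma model. At an unadjusted p below 0.05 it held 1 member, Krt19, whose PHx change was 0.16 ± 0.07 higher in Ppara△Hep livers (limma adjusted p = 0.394). The PHx change of Krt8 was 0.72 ± 0.47 larger in Ppara△Hep livers, with a 95% interval from -0.28 to 1.73 (limma adjusted p = 0.597). That of Tnfrsf12a differed by 0.16, with an interval from -0.93 to 1.26. Both intervals hold 0 and also a difference of 1 on the log2 scale.

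Within the PHx groups, the members' arrays departed from their group means together. On the fourth PHx fl/fl array and the first PHx Ppara△Hep array, Tnfrsf12a, Krt8, Krt18, Tubb2a, Tubb2b and Tubb6 all lay below their group means, and on the third array of each PHx group all 6 lay above. Over the 8 PHx arrays the deviation of Tnfrsf12a correlated with that of Tubb2a at r = 0.98, Tubb2b at 0.96, Tubb6 at 0.92, Krt18 at 0.84 and Krt8 at 0.83. Msn (0.63), Vim (0.33) and Krt19 (-0.34) followed it less closely. Krt8 and Krt18 deviated together at r = 0.98. Tubb2b, counted among the 6, lay at the level of negative controls (mean 1.97). Near-identical tubulin genes can share probe sequence, so their deviations may not be separate readings.

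These correlations are a description over 8 arrays that share their processing. For comparison, over all genes the median r with Tnfrsf12a was -0.01, and 0.455% of genes reached 0.9. With Krt8 the median was 0.06 and 0.720% reached 0.9. Mean levels of most related lists described below also deviated with Tnfrsf12a and Krt8, over the same PHx arrays. Their r values with Tnfrsf12a and Krt8 were 0.82 and 0.89 for the promoter factors and 0.72 and 0.92 for TWEAK receptor signalling. They were 0.73 and 0.80 for the actins, 0.69 and 0.66 for the other tubulins and 0.59 and 0.76 for the relatives of moesin. The other keratins had 0.27 and 0.34. With Tnfrsf12a, cell type marker lists ran from -0.74 to 0.54. Over the 8 sham arrays, where the highest Tnfrsf12a value (5.26) stood apart from the others of its group, the r of Tnfrsf12a with Tubb6 was 0.72, with Tubb2b 0.66, with Tubb2a 0.64, with Krt18 0.61 and with Krt8 0.51. Over the PHx arrays the deviations of the negative control median correlated with those of Tnfrsf12a at 0.60, and those of the positive control median at -0.11. The part of these array measures in the shared deviations was not tested.

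**Figure D3:**
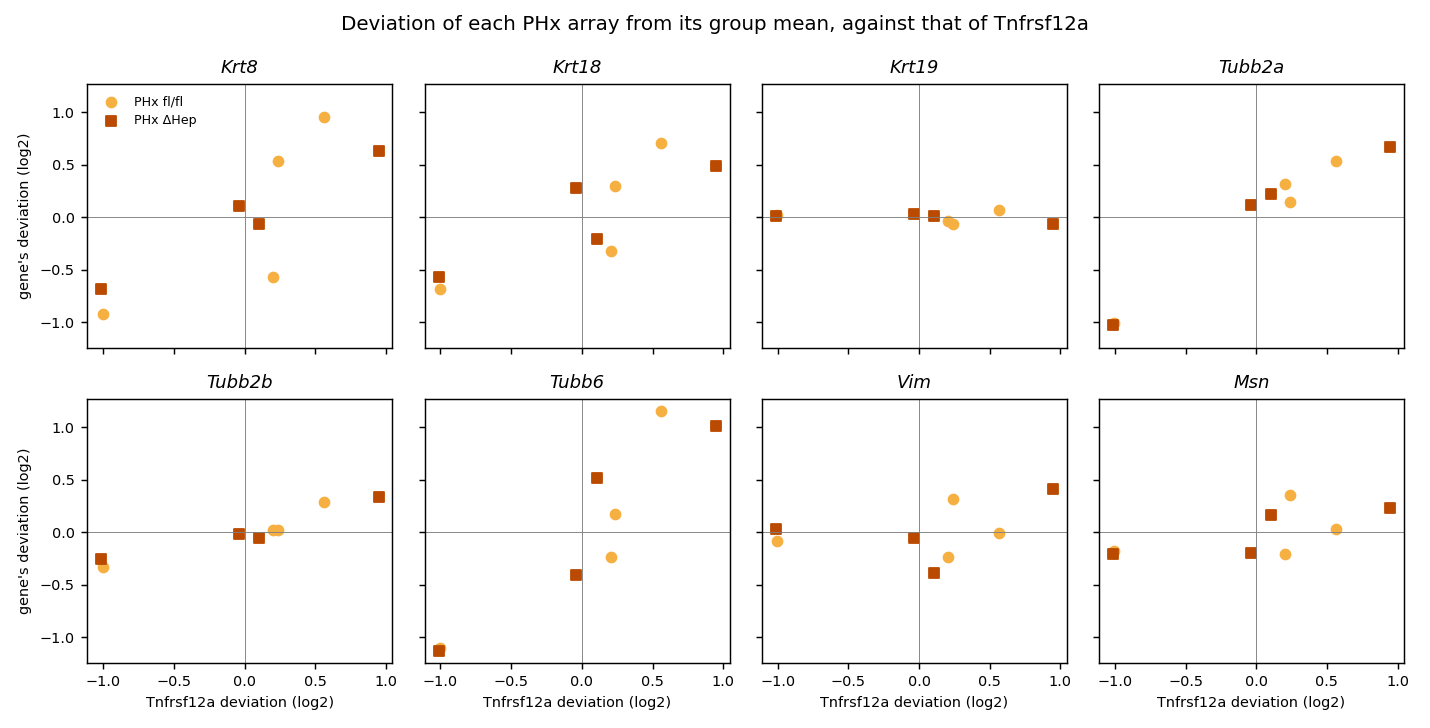
Deviation of each of the 8 PHx arrays from its group mean (log2) for 8 members (y axes), against the deviation of Tnfrsf12a on the same array (x axis); circles are fl/fl and squares Ppara△Hep (ΔHep) arrays. Points of the tubulins and of Krt8 and Krt18 run from lower left to upper right, with r from 0.83 to 0.98, while those of Krt19 stay near 0. Tubb2b lies at the level of negative controls.

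Genes whose pattern over the 16 arrays was most like that of Tnfrsf12a were taken by the smallest root mean square difference after centring each gene. They were Gm25229 at 0.34, Gm25646 at 0.37, Gm24220 and Gm26488 at 0.43 each and Gm25647 at 0.44, all annotated as small nucleolar RNA genes. Gm24220 and Gm26488 have the same values on every array. Gm25229 stood at 0.92 ± 0.28 on sham and 3.91 ± 0.32 on PHx arrays of fl/fl livers (SD, n = 4), below the 95th percentile of negative controls in both. Among protein-coding genes alone, a choice added after seeing the data, the most alike were Btbd35f18 at 0.46, Btbd35f5 at 0.47, Btbd35f16 at 0.48, Gm10354 at 0.49 and Gm17019 at 0.50. Btbd35f18, of a gene family with many copies, stood at 1.16 ± 0.12 on sham and 4.02 ± 0.36 on PHx arrays of fl/fl livers, and Gm10354 at 2.15 ± 0.11 and 4.90 ± 0.03. The shift of chromosome Y genes between the operations, given above, ran the same way, and its relation to this likeness was not tested. For Krt8 the most alike were Coq8b, a gene of coenzyme Q synthesis, at 0.27, E330011O21Rik at 0.31, Tagln at 0.34, Insig2, which restrains sterol synthesis, at 0.36 and the transcription factor gene Klf6 at 0.37. In fl/fl livers Coq8b stood at 4.44 ± 0.07 after sham and 5.83 ± 0.95 after PHx, and in Ppara△Hep livers at 4.54 ± 0.06 and 5.88 ± 0.51 (SD, n = 4), with the larger spread after PHx that Krt8 also had.

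The other genes of the pathways came from lists made with earlier results of these data known. Of 18 genes of TWEAK receptor signalling 14 were measured, and the ligand gene Tnfsf12 was not among them. After PHx 1 was called higher and 7 lower in fl/fl livers, and 0 higher and 4 lower in Ppara△Hep livers. Of all genes, 11.9% were called higher and 20.8% lower in fl/fl livers, and 14.8% and 17.5% in Ppara△Hep livers. Traf2, an adaptor that binds the receptor, fell by 0.31 ± 0.07 in fl/fl and 0.33 ± 0.07 in Ppara△Hep livers (limma adjusted p = 0.0036 and 0.0020). Also called lower in fl/fl livers were Traf5, Birc2, Birc3, Map3k14 (the NF-κB inducing kinase), Nfkb2 and Relb, by 0.21 to 0.33. Traf2 and these 6 genes had group means below the 95th percentile of negative controls. Under another scaling Traf5, Birc2, Birc3 and Nfkb2 lost their calls in fl/fl livers (adjusted p up to 0.110, 0.109, 0.0845 and 0.0636), while Traf2, Map3k14 and Relb kept theirs. In Ppara△Hep livers Birc2, Birc3 and Ikbkb were the others called lower, by 0.23 to 0.34, and each lost its call under another scaling (adjusted p up to 0.103, 0.265 and 0.0557). Cd163, a scavenger receptor of macrophages that binds TWEAK, rose by 0.39 ± 0.14 in fl/fl livers (limma adjusted p = 0.0421). Its adjusted p reached 0.115 under another scaling, and the whole list had 2 higher and 3 lower in fl/fl and 0 and 1 in Ppara△Hep livers after cyclic loess. Under quantile normalization it had 0 higher and 9 lower, and 0 and 8. Of all 30142 genes, 8583 and 8136 were called after cyclic loess (41.7% and 45.3% of them higher). Under quantile normalization these were 15400 and 13101 (15.8% and 19.7% higher). Nfkbia, an inhibitor gene that NF-κB itself induces, differed by 0.10 ± 0.14 and 0.12 ± 0.14 (limma adjusted p = 0.626 and 0.565), and its sign turned under another scaling.

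Other actins and actin-binding genes held more calls upward. Of 33 measured, 8 rose and 5 fell in fl/fl livers, and 14 rose and 1 fell in Ppara△Hep livers, with medians of 0.10 and 0.23. Of all genes, 11.9% and 14.8% were called higher and 20.8% and 17.5% lower. After cyclic loess 12 of the 33 rose and 0 fell in fl/fl, and 16 and 0 in Ppara△Hep livers. Under quantile normalization these counts were 5 and 11, and 9 and 5, and after subtraction of array medians 5 and 9, and 8 and 10. After cyclic loess 8583 and 8136 of all 30142 genes were called (41.7% and 45.3% of them higher). Under quantile normalization 15400 and 13101 were called (15.8% and 19.7% higher), and after array medians 15420 and 15350 (14.8% and 13.9% higher). The percentages in brackets are shares of the genes called, whereas the actin counts are out of the 33 measured. Tagln, an actin-binding gene of smooth muscle known as a target of serum response factor, rose by 1.42 ± 0.28 and 1.60 ± 0.28 (limma adjusted p = 0.0017 and 0.00061). Tpm4, a tropomyosin gene, rose by 0.77 ± 0.16 and 0.95 ± 0.16, and the myosin light chain gene Myl12a by 0.66 ± 0.12 and 0.72 ± 0.12 (limma adjusted p below the threshold in both). These 3 kept their direction and their calls under each scaling tried. The group means of Tagln were 3.24 and 3.25 after sham and 4.66 and 4.86 after PHx (fl/fl and Ppara△Hep). All lay below the 95th percentile of negative controls (4.93).

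For the next 3 lists, 11.9% of all genes were called higher and 20.8% lower in fl/fl livers, and 14.8% and 17.5% in Ppara△Hep livers. These shares are for the values as deposited. Of all 30142 genes, quantile normalization called 15400 in fl/fl and 13101 in Ppara△Hep livers (15.8% and 19.7% of them higher). Subtraction of array medians called 15420 and 15350 (14.8% and 13.9% higher), and cyclic loess 8583 and 8136 (41.7% and 45.3% higher). Of the other tubulins and their folding factors, 0 of 17 rose and 5 fell in fl/fl livers, and 1 rose and 5 fell in Ppara△Hep livers. Under the other scalings 0 rose, and from 3 (cyclic loess) to 7 fell in fl/fl and from 4 (cyclic loess) to 12 (array medians) in Ppara△Hep livers. Tbcb, a tubulin folding cofactor gene, fell by 0.66 ± 0.12 and 0.70 ± 0.12 (limma adjusted p = 0.00065 and 0.00040). Tubg1, which encodes the γ-tubulin that nucleates microtubules, fell by 0.61 ± 0.11 and 0.90 ± 0.11 (limma adjusted p = 0.00088 and 2.6e-05). Of 17 other keratin and filament-partner genes, 0 rose in either genotype, and 5 fell in fl/fl and 2 in Ppara△Hep livers. These falls numbered 1 and 1 after cyclic loess, 10 and 8 under quantile normalization and 10 and 9 after subtraction of array medians. Krt17 fell by 0.18 ± 0.06 in fl/fl livers (limma adjusted p = 0.0233). Among 12 relatives and partners of moesin, 0 rose and 3 fell in fl/fl, and 2 rose and 3 fell in Ppara△Hep livers, with 5 and 5 lower under quantile normalization. Rdx, the radixin gene of the same family as Msn, fell by 0.63 ± 0.15 and 0.70 ± 0.15 (limma adjusted p = 0.0065 and 0.0031).

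Of 16 genes for factors known to act on promoters of such genes, 2 rose and 0 fell in each genotype. Of all genes, 11.9% were called higher and 20.8% lower in fl/fl livers, and 14.8% and 17.5% in Ppara△Hep livers. After cyclic loess 3 and 5 of the 16 rose, where 8583 and 8136 of all genes were called (41.7% and 45.3% higher). After subtraction of array medians 2 and 3 of the 16 fell, where 15420 and 15350 of all genes were called (14.8% and 13.9% higher). Jun, a part of AP-1, rose by 0.96 ± 0.27 in fl/fl and 0.98 ± 0.27 in Ppara△Hep livers (limma adjusted p = 0.0147 and 0.0131). Klf6, an immediate early zinc finger gene, rose by 1.62 ± 0.50 and 2.01 ± 0.50 (limma adjusted p = 0.0214 and 0.0065), from 3.78 ± 0.13 to 5.40 ± 1.09 in fl/fl livers (SD, n = 4). In fl/fl and Ppara△Hep livers the median differences were -0.19 and -0.07 for TWEAK receptor signalling and -0.13 and 0.006 for the other keratins and partners. They were -0.20 and -0.16 for the other tubulins and -0.008 and -0.002 for the relatives of moesin. For the promoter factors they were 0.14 and 0.26. The medians of all these lists stand beside -0.04 and 0.01 over all genes, and percentages of all genes called are those given for the members.

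**Figure D4:**
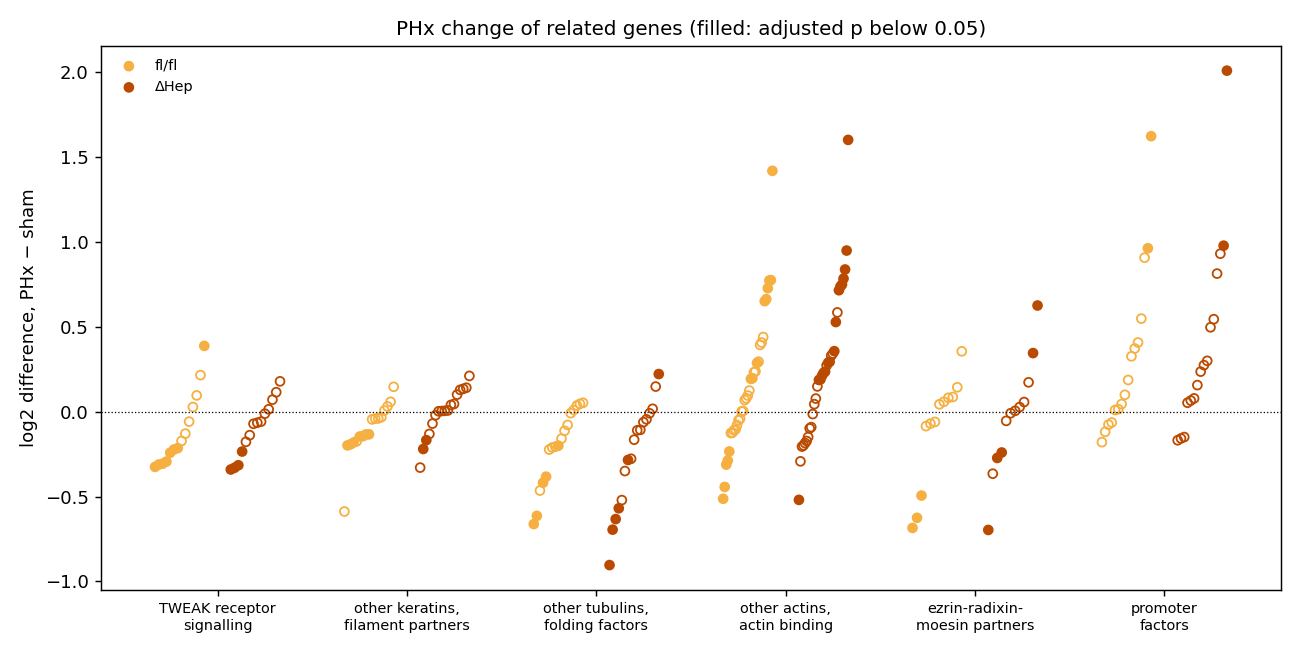
Log2 difference between PHx and sham (y axis) of each measured gene in 6 related lists (x axis), for fl/fl (left of each pair) and Ppara△Hep (ΔHep, right) livers, sorted within a list; filled points passed the test. The highest points are Klf6 among the promoter factors and Tagln among the actin-binding genes, and most filled tubulin and TWEAK signalling points lie below 0.

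Marker genes of cell types that express some members were set beside these results. Of all 30142 genes, 11.9% were called higher and 20.8% lower in fl/fl livers, and 14.8% and 17.5% in Ppara△Hep livers. Under quantile normalization 15400 and 13101 genes were called (15.8% and 19.7% of them higher). After subtraction of array medians these were 15420 and 15350 (14.8% and 13.9% higher), and after cyclic loess 8583 and 8136 (41.7% and 45.3% higher). The mean level of 11 cholangiocyte and ductal markers ranged from 2.49 to 2.62 on sham and 2.39 to 2.71 on PHx arrays, with Epcam, Cftr and Prom1 at or below the median of negative controls. Of these 11, 0 rose in either genotype, and 2 fell in fl/fl (Cldn7 and Krt19 itself) and 1 in Ppara△Hep livers (Muc1). Under quantile normalization 8 and 5 of the 11 fell, and after subtraction of array medians 9 and 5. Of 12 stellate cell and fibroblast markers 0 rose in either genotype, and 5 fell in fl/fl and 3 in Ppara△Hep livers, their mean being 4.13 to 4.36 on sham and 3.83 to 4.09 on PHx arrays. Under both quantile normalization and array medians 9 and 10 of the 12 fell, and after cyclic loess 1 rose in Ppara△Hep livers. Kupffer cell markers had a mean of 5.05 to 5.66 on sham and 4.66 to 5.14 on PHx arrays, with 1 of 11 higher and 4 lower in fl/fl and 0 higher and 8 lower in Ppara△Hep livers; after cyclic loess 3 and 4 were lower, and under quantile normalization 7 and 8. Of 10 sinusoidal endothelial markers, 1 rose and 6 fell in each genotype. Of 8 neutrophil markers 1 rose and 1 fell in fl/fl, and 1 rose and 0 fell in Ppara△Hep livers. For 7 monocyte markers these counts were 1 and 0, and 1 and 1. For 9 T and NK cell markers they were 0 and 4, and 1 and 0, and for 5 B cell markers 0 and 3, and 0 and 0. Mean levels of these leukocyte lists lay below the 95th percentile of negative controls on every array. Of 8 mesothelial markers 0 rose in fl/fl and 1, Upk1b, in Ppara△Hep livers, with 0 lower in both, and Muc16 and Bnc1 were at or below the negative control median. Upk1b lost its call under another scaling (adjusted p up to 0.216), and under quantile normalization and array medians 5 and 4 of the 8 were lower. The 9 hepatocyte markers had a mean of 10.25 to 10.44 on sham and 10.21 to 10.34 on PHx arrays, with 0 higher and 3 lower in fl/fl and 2 lower in Ppara△Hep livers. After subtraction of array medians 7 of the 9 were lower in each genotype. The neutrophil mean was 3.70 on the second PHx fl/fl array, against 2.47 to 2.76 on the others of that group. That array also held the group's highest Vim (4.97) and Msn (5.74). In PHx Ppara△Hep livers the neutrophil mean ran from 2.68 to 2.90. The part of these cell types in the members' values was not tested.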

How the data were processed

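Total RNA of mouse liver was hybridised to 16 Affymetrix arrays, 4 per group of operation and genotype, per the labels. The deposited table holds log2 levels, which the authors obtained by RMA, per the submitters' processing notes. This method corrects background, normalizes between arrays and summarises probes, and values near background understate changes. Its software, its version and the build were not given in the sources used here. Of 72688 probe sets, 30604 carry 1 symbol, 2146 several and 39938 none here. Entrez identifiers served to update 827 symbols to those of RefSeq. Probe sets with several symbols name no gene, and 355 genes with several probe sets were read from the one with the highest mean, which left 30142 genes.

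The tests used limma 3.58.1 (R 4.3.3, data.table version 1.17.8), with 1 mean per group over all 16 arrays, 12 residual degrees of freedom, eBayes defaults, Benjamini-Hochberg adjustment over 30142 genes, threshold 0.05. Errors are standard errors of that model unless SD is stated. For arrays, their number limits the precision. Single members were also compared between genotypes with two-sided exact permutation tests. The steps were tested on simulated data. Alternatives were cyclic loess, quantile normalization, subtraction of array medians, leaving out dim genes, eBayes with trend, array weights, the 8 arrays compared alone, the mean of all probe sets, each array left out and, added after seeing the data, protein-coding genes outside chromosome Y alone. The members and the lists were chosen with earlier results of these data known. Named genes are all members, up to 3 genes per list with the lowest adjusted p among those called, any gene of the TWEAK list, the 5 genes most like Tnfrsf12a and Krt8, and Ppara with its target Cyp4a14; the 2 single-copy Y genes and the likeness among protein-coding genes alone were chosen after values were seen. Motif matches are exact letters on either strand.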

Additional observations from a re-analysis of the deposited data

Results flagged for a closer look

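In 36 groups of 4 arrays (9 genes in 4 groups), 3 had an array whose gap to the nearest other array was more of the group's range than Dixon's 95% critical value for 4 arrays. Chance alone gives about 1 in 20. Tnfrsf12a was highest on the first sham fl/fl array, at 5.26 against 4.51 to 4.57 on the others, with a gap of 0.921 of the range. Vim was highest on the second sham fl/fl array, at 4.56 against 4.39 to 4.40, with a gap of 0.901. Krt19 was lowest on the third PHx Ppara△Hep array, at 2.41 against 2.49 to 2.50, with a gap of 0.867.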

How the results depend on the processing

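Krt18 in both genotypes and Krt19 in fl/fl livers kept their direction and their call under the alternatives in which they were tested. With dim genes left out, Krt19, Tubb2b and Vim have no value. For PHx against sham in Ppara△Hep livers the count of 3 members past the threshold, which includes Tnfrsf12a and Krt8 as a description, became 6 under cyclic loess (Krt19, Vim and Msn added), 5 under quantile normalization (Krt19 and Msn added), 5 with array weights (Tubb6 and Msn added) and, with 1 array left out, from 3 to 5. In fl/fl livers the same count of 4 ran from 4 to 5 with 1 array left out, and the 3 genotype comparisons stayed at 0. With array weights the difference of Ppara△Hep from fl/fl after PHx turned to 0.040 for Tnfrsf12a and 0.044 for Vim. With 1 array left out, some uncalled values changed sign. PHx against sham in Ppara△Hep livers ran from -0.17 to 0.034 for Tubb2b. Ppara△Hep against fl/fl after sham ran from -0.079 to 0.031 for Krt18, -0.063 to 0.34 for Tubb2a, -0.0098 to 0.14 for Tubb2b, -0.18 to 0.024 for Tubb6 and -0.080 to 0.030 for Msn. The same after PHx ran from -0.40 to 0.28 for Tnfrsf12a, -0.46 to 0.22 for Tubb2a, -0.23 to 0.52 for Tubb6 and -0.15 to 0.12 for Vim. The difference between the genotypes in the PHx change ran from -0.17 to 0.50 for Tnfrsf12a, -0.56 to 0.11 for Tubb2a, -0.024 to 0.18 for Tubb2b, -0.14 to 0.61 for Tubb6 and -0.050 to 0.22 for Vim. The causes were not tested. Over all genes, 9868 were called in fl/fl and 9734 in Ppara△Hep livers, of which 36.5% and 45.8% were higher. After cyclic loess 8583 and 8136 were called (41.7% and 45.3% higher). Under quantile normalization 15400 and 13101 were called (15.8% and 19.7% higher), after subtraction of array medians 15420 and 15350 (14.8% and 13.9% higher), with dim genes left out 2564 and 2745 (15.1% and 12.0% higher) and among protein-coding genes outside chromosome Y 6505 and 6600 (26.4% and 33.4% higher). These scalings moved the median of all genes in fl/fl livers from -0.04 to -0.14 (quantile) and -0.15 (medians). No paired analysis was possible because the labels give the groups no shared replicate numbers.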
